A study of Homo sapiens with 6 samples.

Results

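5S rRNA is the small RNA of the large ribosomal subunit, and the human genome holds a tandem cluster of 5S genes together with many scattered copies named RNA5SP. All 515 transcripts with a symbol starting RNA5S were members, of 207167 transcripts in the RNA-seq table: 17 genes, RNA5S1 to RNA5S17, and 498 RNA5SP copies. They were chosen by symbol and by a measured value, a mean of at least 0.1 RPKM (reads scaled to transcript length and library size) over the 6 libraries. That minimum left out no 5S symbol. The lowest member mean was 0.243 RPKM (RNA5SP420), the median 0.396 RPKM and the highest 733 RPKM, because copies without reads were still listed at a level above 0.

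RNA polymerase III transcribes the 5S genes, guided by TFIIIA, which binds an internal control region inside the transcribed part. The RNA is carried by RPL5 and RPL11 as the 5S ribonucleoprotein, which joins the large subunit or, when free, binds MDM2. DIS3L2 is a cytoplasmic exonuclease that degrades RNAs with an added oligo(U) tail from their 3' end, and RNA polymerase III transcripts end in uridines. The comparison asked whether levels of 5S RNAs differed in cells with an inactive DIS3L2.

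The D391N libraries (n = 3) came from human embryonic kidney HEK293T-Rex cells, labelled HEK293, with an integrated, doxycycline-inducible DIS3L2 that carries the D391N substitution in its catalytic site and a Flag tag. Control libraries (n = 3) came from the HEK293T-Rex FlipIn parent, and the sources used here do not say whether these cells received doxycycline. Both kept their own DIS3L2, each condition was 1 line, and construct and line cannot be told apart. Total RNA was depleted of rRNA before sequencing, so that the values are of the 5S RNA that remained. The study monitored the efficiency of rRNA removal, but the share removed in each library is not given in the sources used here. The labels do not say whether replicates were separate cultures, so that p-values measure the spread between these libraries, which may be technical. Fewer cells with an RNA and less of it per cell cannot be told apart in such bulk samples.

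As a check of the labels, DIS3L2 summed over its 16 transcripts was at 369, 467 and 512 RPKM in the D391N libraries, listed here and throughout in the order of replicates 1 to 3, and at 11.8, 12.9 and 14.6 RPKM in the controls. Of the markers of the line, VIM was at 110 to 177 RPKM and KRT8 at 98.6 to 180 RPKM over the libraries. KRT18 was at 26.5 to 40.7 RPKM and LIN28B at 15.8 to 31.9 RPKM, while PAX2 was at only 1.31 to 1.93 RPKM. CD3E, a T cell marker, was at 0.0796 to 0.137 RPKM and ALB, a liver marker, at 0.596 to 1.13 RPKM. PTPRC (blood) was at 1.34 to 1.77 RPKM, HBB (red cells) at 2.14 to 7.12 RPKM and COL1A1 (fibroblasts) at 2.03 to 4.05 RPKM. These lay in or above the range of PAX2. Control replicate 3 stood apart from the other controls in the 5S RNAs, and the main differences are therefore also given without it.

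The likeness of the genes and copies decides which of them a 50-nt read can tell apart. RNA5S1 and 15 further 5S genes had 1 identical sequence of 119 nt, and all 17 genes lay in a cluster on the minus strand of chromosome 1. The internal control region inside the gene has 3 parts, the A box (bases 50 to 64, counted from the 5' end), the intermediate element (bases 67 to 72) and the C box (bases 80 to 97). RNA5S9 differed from RNA5S1 at a single base, inside the C box.

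The copies that the results turn on were compared with RNA5S1 by the longest run of bases in common. RNA5SP149 (chromosome 3, minus strand, 92 nt, intergenic) held the first 83 bases of the gene. RNA5SP429 (chromosome 16, plus strand, 109 nt) lay in an intron of CDH1 on the same strand and shared a run of 76 bases. RNA5SP242 (chromosome 7, plus strand, intergenic) shared 49 bases and RNA5SP368 (chromosome 12, plus strand, opposite to GNPTAB) 26. RNA5SP217 (chromosome 6, minus strand), in an intron of ECHDC1 on the same strand, shared 16. Annotation and likeness are from the GENCODE transcripts on GRCh37, which matched 515 of 515 members by transcript identifier.

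The RNA5SP copies were 35 to 138 nt long (median 115) and had 29.4 to 99.2% identity to RNA5S1 over the whole alignment (median 73.3%). The exact A box was found in 52 RNA5SP copies (10.4%), the intermediate element in 271 (54.4%) and the C box in 5 (1.0%), searching the transcript strand only. The 3 elements do not overlap each other. Of 5230 other GENCODE transcripts of 90 to 140 nt, 0 held the A box, 0 the C box and 153 (2.93%) the intermediate element. RNA5SP202, on chromosome 6, was the sole copy with all 3, at 99.2% identity. Only 19 RNA5SP copies shared a 50-nt window with RNA5S1, so that these and the 17 genes formed a group of 36 members that could receive the same error-free reads.

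Across the 498 RNA5SP copies, Spearman's rho between mean RPKM and identity was -0.016. Between mean RPKM and the number of shared windows it was 0.29, and both values describe copies measured in the same libraries. Since 419 of these copies had under 3 estimated reads in every library, rho cannot show whether likeness orders the levels. Of the 7 copies with at least 90% identity 4 reached a mean of 1 RPKM, and of the 400 copies under 80% identity 56 did. The median levels were 2.56 RPKM for these 7 copies, 0.370 RPKM for the 91 copies from 80 to 90% and 0.390 RPKM for the 400.

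Summed over all members, the 5S level was 1518, 432 and 723 RPKM in D391N, against 454, 369 and 10054 RPKM in control. Control replicate 3 lay above every other library, and the remaining controls lay within or just below the D391N range. The means were 891 ± 562 RPKM in D391N and 3626 ± 5567 RPKM in control (SD, n = 3 each), a log2 difference of the sums of -0.61, and the conditions overlapped. Without control replicate 3 the difference was 0.93, in the other direction. No p is given for sums over members that were selected on their level.

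**Figure D1:**
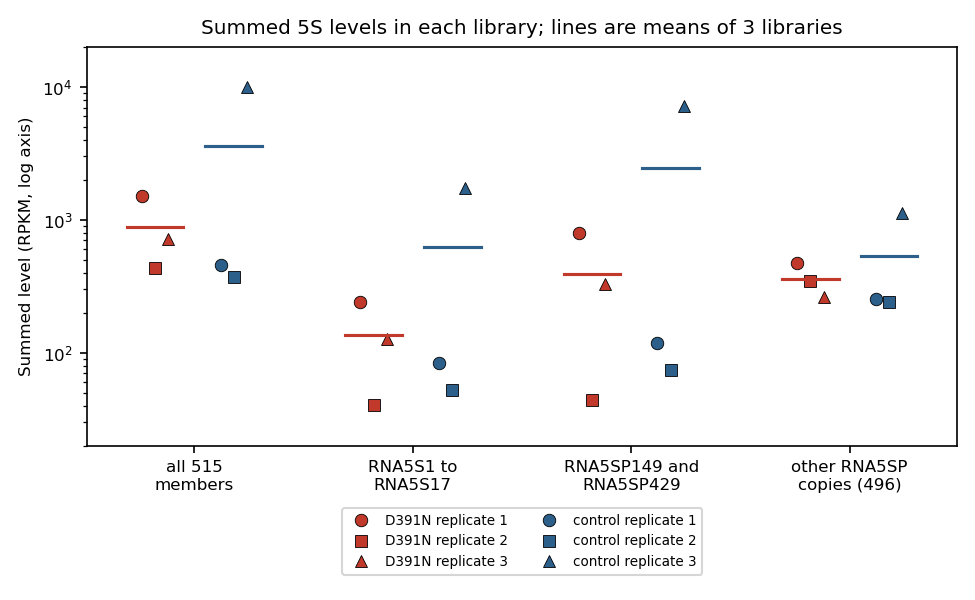
Summed levels (RPKM, log axis) of all 515 members, of RNA5S1 to RNA5S17, of RNA5SP149 with RNA5SP429, and of the other 496 RNA5SP copies. Each point is a library and each line the mean of 3 libraries, and control replicate 3, at 10054 RPKM for all members, lies highest in each of the 4 groups.

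An excess of this size in control replicate 3 was not seen in the other small RNAs transcribed by RNA polymerase III that were compared, or in the mitochondrial rRNAs. Its 5S sum was 24.4 times the mean of the other 2 controls. This ratio was 1.78 for U6 pseudogene copies, 0.798 for 7SK pseudogene copies, 1.14 for 7SL pseudogene copies and 0.738 for RN7SK, the 7SK gene. It was 2.03 for the mitochondrial rRNAs, and its median over all tested transcripts was 0.932. For the 6 entries of 5.8S rRNA it was 2.21, but their sum was only 1.02, 1.70 and 3.00 RPKM in control. Symbols starting RNA18S, RNA28S or RNA45S numbered 0, so that other cytoplasmic rRNA could hardly be compared. The part that rRNA depletion or the library preparation had in the excess was not tested.

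RNA5S1 to RNA5S17 summed to 240, 40.5 and 128 RPKM in D391N and to 83.6, 52.1 and 1725 RPKM in control. Control replicate 3 was highest and D391N replicate 2 lowest, and the log2 difference was -0.87, or 0.70 without control replicate 3. The genes made up 9.36 to 18.4% of the family sum in the 6 libraries, and the rest was listed under RNA5SP copies. These shares depend on the measure. With expected RPKM, which also takes in the uncertainty of each level, the genes summed to 2583 of 11086 RPKM in control replicate 3. In D391N replicate 2 they then summed to 67.7 of 632 RPKM.

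The program behind the levels, BitSeq, shares out a read among all transcripts it matches, and the identical genes were listed at nearly equal values. Within a library they differed little: they ranged from 9.36 to 10.9 RPKM in D391N replicate 1 and from 2.42 to 2.86 RPKM in control replicate 2. In control replicate 3 they ranged from 59.9 to 88.5 RPKM. Their posterior variances of ln RPKM were 1.25 to 1.94 over the libraries, around the value of 1.64 that a transcript without reads of its own has, so that no level of a single one of the 16 genes was measured.

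RNA5S9, told apart by its single base, was listed at 79.6, 4.72 and 25.4 RPKM in D391N and at 10.5, 10.1 and 538 RPKM in control. Its posterior variance was lower, from 0.00299 in control replicate 3 to 0.402 in D391N replicate 2. Its value in control replicate 3 was above that of every identical gene, and the conditions overlapped. The log2 fold change was -0.86 (SE 1.73, adjusted p = 0.824, limma), and it was 1.04 without control replicate 3 and 0.22 without D391N replicate 2.

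**Figure D2:**
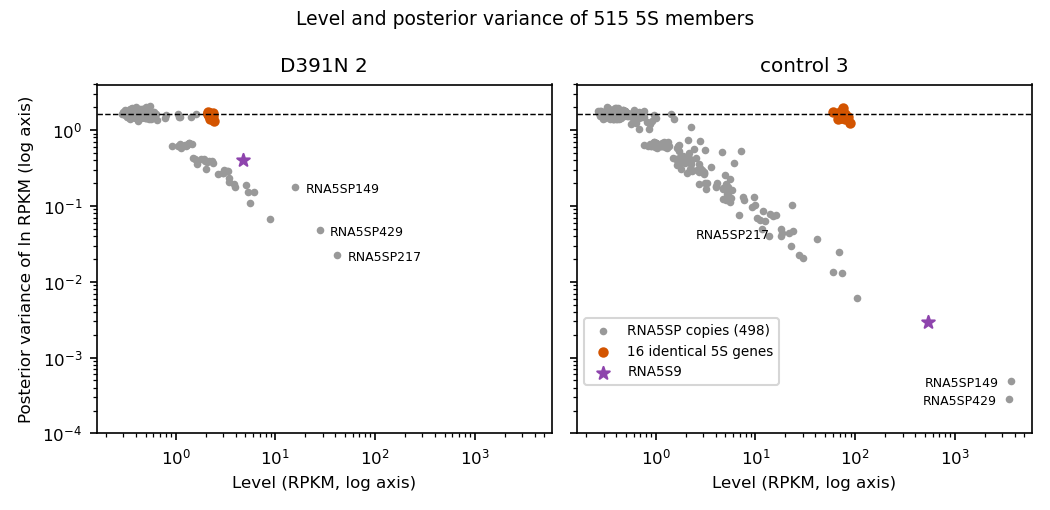
Posterior variance of ln RPKM against level (both log axes) of all 515 members in D391N replicate 2 and control replicate 3. The 16 identical genes stay near the no-read variance of 1.64, marked by the dashed line, at every level, while RNA5S9 and the leading RNA5SP copies fall to low variances in control replicate 3.

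Read support was thin outside a few copies. By the posterior variance, 435 members had under 3 reads in every library, 16 of them the identical genes and 419 RNA5SP copies, and 9 had a mean of at least 10 reads. These are effective numbers, since reads shared with another copy count for less, and they cover counting and assignment error only. In a copy of 119 nt such as RNA5SP452, 3 reads amount to 1.52 to 2.56 RPKM depending on the library. Copies under 3 reads throughout had median levels of 0.371, 0.428 and 0.327 RPKM in D391N and 0.276, 0.266 and 0.410 RPKM in control. Without control replicate 3, such levels alone give a positive difference. A mean of at least 1 RPKM was reached by 97 members, all 17 genes and 80 RNA5SP copies, and these were tested together with all other transcripts at that level. Of the 80 copies, 25 had at least 3 effective reads in some library of each condition.

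RNA5SP149 was at 395, 15.9 and 210 RPKM in D391N and at 49.7, 33.8 and 3694 RPKM in control. RNA5SP429 followed it closely, at 408, 28.0 and 122 RPKM in D391N and at 68.5, 40.7 and 3512 RPKM in control. For both copies control replicate 3 was highest, D391N replicate 2 was lowest and the conditions overlapped. The log2 fold changes were -0.74 (SE 2.0, adjusted p = 0.870) for RNA5SP149 and -0.94 (SE 1.79, adjusted p = 0.812) for RNA5SP429, and without control replicate 3 they were 1.42 and 1.08 (adjusted p = 0.696 and 0.714, limma). Leaving out D391N replicate 2 instead also turned both positive, to 0.64 and 0.06. Together these 2 of 515 members held from 10.2% of the family sum in D391N replicate 2 to 71.7% in control replicate 3. Neither lies in the gene cluster, and CDH1, around RNA5SP429, was at 4.15 to 7.02 RPKM with a log2 difference of 0.00066. Since both hold the first part of the gene, how many of their reads came from 5S rRNA itself was not tested.

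The remaining 513 members summed to 715, 388 and 391.6 RPKM in D391N and to 336, 294 and 2847 RPKM in control. Control replicate 3 was again highest, at 9.03 times the mean of the other controls, and the log2 difference was -0.46, or 0.60 without that library. The 36 members that share a window with RNA5S1 held 91.8% of the sum of control replicate 3 and 36.7 to 47.2% of the sums of the other controls. The 479 members that share none summed to 420, 333 and 234 RPKM in D391N and to 240, 233 and 827 RPKM in control, 3.50 times the other controls in replicate 3, with a log2 difference of -0.17, or 0.44 without it. Most of the 513 and most of the 479 members had under 3 reads in every library. Their listed levels enter the sums, so that part of each sum and of its differences was not measured by reads.

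**Figure D3:**
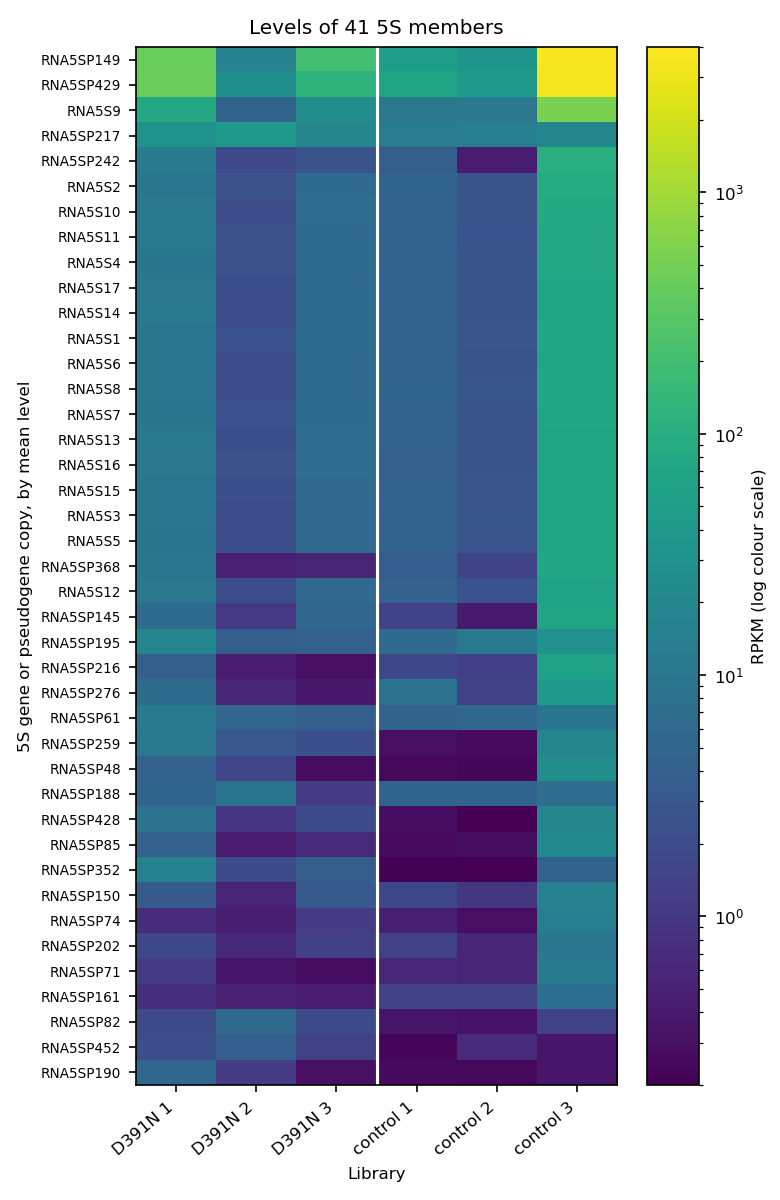
Levels (RPKM, log colour scale) of 41 members in the 6 libraries, sorted by mean level, with the white line between D391N and control. Control replicate 3 is brightest for most of them, led by RNA5SP149 at 3694 RPKM, while RNA5SP217 is brightest in D391N replicate 2 at 41.7 RPKM.

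Below these leading copies, RNA5SP242 was at 11.9, 1.80 and 2.62 RPKM in D391N and at 3.93, 0.42 and 104 RPKM in control. RNA5SP368 was at 9.65, 0.50 and 0.55 RPKM in D391N and at 3.59, 1.53 and 74.3 RPKM in control. RNA5SP145, in an intron of MED12L, was at 6.46, 1.05 and 5.30 RPKM in D391N and at 1.49, 0.40 and 68.5 RPKM in control. In all of these control replicate 3 was far above the rest and D391N replicate 1 came next, as in the family sum, while the order of the lower libraries varied. RNA5SP195, in an intron of MATR3, followed it less steeply, at 18.7, 3.96 and 4.23 RPKM in D391N and at 6.27, 11.8 and 30.3 RPKM in control. MATR3 itself had 909, 1482 and 1149 RPKM in D391N and 635, 619 and 672 RPKM in control, an order that differs from that of the copy.

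Control replicate 3 was the highest library for 68 of the 97 tested members (70.1%), against 13.9% of all tested transcripts, and D391N replicate 1 was highest for 15. This share is in part set by the filter, since 30 of the 97 members reached a mean of 1 RPKM only through that library. With the mean taken over the other 5 libraries, a filter chosen after seeing the data, control replicate 3 was highest for 38 of 67 members (56.7%), 21 of them among 50 RNA5SP copies (42.0%), against 12.5% of all transcripts kept by it. The excess was graded by likeness in a 50-nt window, a measure chosen after the levels were seen. Control replicate 3 was highest for 15 of the 17 tested RNA5SP copies that had a window identical to RNA5S1, with a median ratio to the other controls of 35.8. With 1 to 3 mismatches in the closest window it was highest for 23 of 26 copies, and the median ratio was 15.6. With 4 to 6 mismatches it was highest for 7 of 15 copies (median ratio 2.32), and with 7 or more for 5 of 21 (median ratio 1.45). Among copies kept by the other 5 libraries, it was highest for 10 of 12, 8 of 11, 2 of 10 and 1 of 17 in these classes, with median ratios of 41.9, 29.1, 1.52 and 1.23. Copies in this comparison share reads and libraries, and no test was made.

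**Figure D4:**
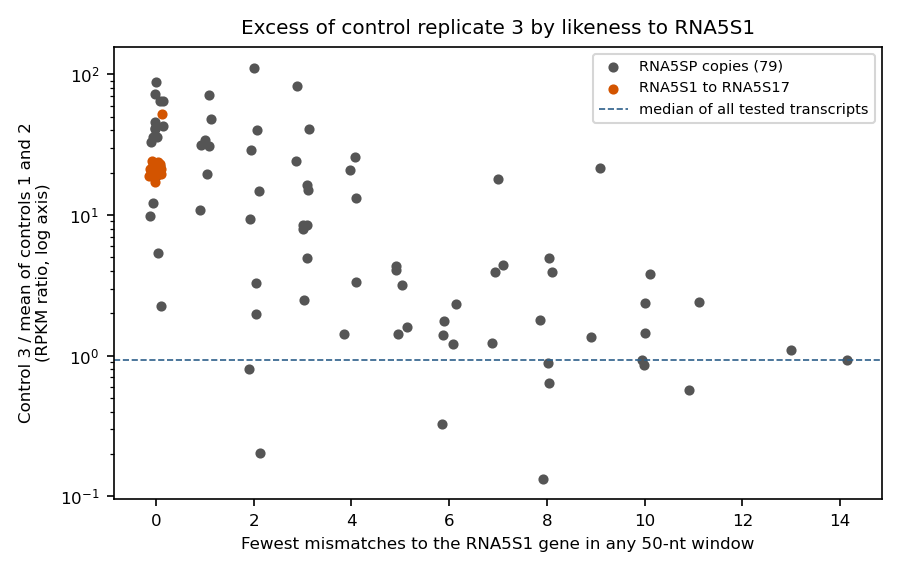
Ratio of control replicate 3 to the mean of the other controls (log axis) against the fewest mismatches to RNA5S1 in any 50-nt window, for 79 tested RNA5SP copies and the 17 genes, with points spread sideways by less than 1 mismatch. Ratios fall from a median of 35.8 at 0 mismatches to 1.45 at 7 or more, near the dashed median of 0.932 over all tested transcripts.

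RNA5SP217 was the most abundant copy that departs from the family pattern, at 31.6, 41.7 and 19.5 RPKM in D391N and at 13.5, 13.6 and 18.6 RPKM in control. Every D391N library lay above every control library, and control replicate 3 was close to the other controls. The log2 fold change was 0.97 (SE 0.34, unadjusted p = 0.025, adjusted p = 0.230, limma), so that the difference did not pass the threshold. The copy had 20.6 to 43.4 effective reads per library, 63.0% identity to RNA5S1 and 9 mismatches in its closest window. ECHDC1, the enzyme gene in whose intron it lies, was at 88.3, 158 and 127 RPKM in D391N and at 68.0, 72.8 and 54.1 RPKM in control, a log2 difference of 0.91 for its summed transcripts. The part of ECHDC1 precursor RNA in the level of the copy was not tested.

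RNA5SP268, which overlaps an exon of CSPP1, was even over the libraries, at 3.57, 5.54 and 4.29 RPKM in D391N and at 4.80, 6.05 and 5.08 RPKM in control. RNA5SP188 and RNA5SP61 had control replicate 3 at 1.42 and 1.80 times the other controls, and neither shared a window with RNA5S1. By annotation, 41 tested members lay in introns on the same strand, 33 were intergenic, 15 overlapped a gene only on the opposite strand and 8 overlapped an exon, which for RNA5S7, RNA5SP162, RNA5SP85 and RNA5SP71 is that of another 5S entry. Whether the counting used strand is not given in the sources used here, so reads of a copy and of a gene on the opposite strand cannot be told apart.

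Tested by limma with Benjamini-Hochberg adjustment over 54671 transcripts, 0 of the 97 members passed an adjusted p of 0.05, higher or lower, beside 33 of all transcripts tested (0.0604%). At an unadjusted p under 0.05 there were 5 members (5.15%), 4 higher and 1 lower in D391N, against 17.6% of all tested transcripts. The median log2 fold change of the members was -0.60, with 78 negative and 19 positive, beside -0.07 over all tested transcripts. With levels of copies under 3 reads raised to that of 3 reads the median was -0.13. The negative values are in part set by the filter: over the 67 members kept by the libraries other than control replicate 3 the median was -0.52, and over their 50 RNA5SP copies -0.12. Over all 515 members it was 0.20, but 435 of these had under 3 reads in every library. That value therefore mostly reflects the levels listed for copies without reads. The 16 identical genes, which have no level of their own, count among the negative values. Without control replicate 3 the median of the 97 was 0.59 and 76 were positive. These signs are in part fixed in advance, since copies almost without reads in the libraries left were listed higher in D391N. Over the 50 RNA5SP copies the median was then 0.48, with 33 positive. The 17 genes all had negative values, from -0.97 to -0.75, with adjusted p of 0.706 to 0.824, and all 17 were positive without that library.

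Every D391N library lay above every control library for 4 members (4.12%), RNA5SP217, RNA5SP82, RNA5SP452 and RNA5SP389 (the last without effective reads in any library), a share below the 10.1% of all tested transcripts. Every D391N library lay below for 2 members (2.06%), RNA5SP161 and RNA5SP479, against 15.6%. Leaving out control replicate 3, the conditions did not overlap for 27 members above and 3 below, while over all tested transcripts 12.7% then lay above and 21.4% below. Members near the level of no reads add to the 27, since that level was higher in every D391N library than in the controls left. By limma 0 members then passed, with 9 at an unadjusted p under 0.05.

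**Figure D5:**
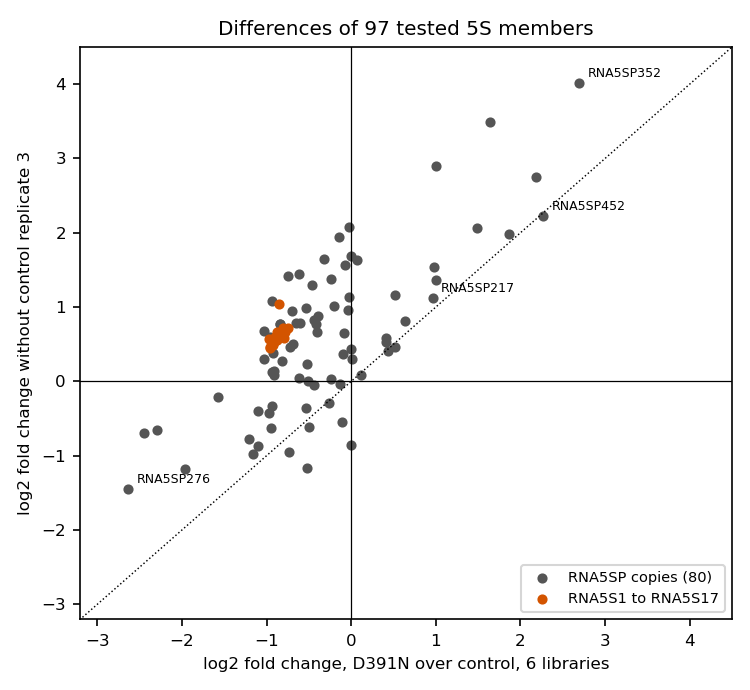
Fold changes (log2, D391N over control) of the 97 tested members from all 6 libraries (horizontal) and without control replicate 3 (vertical), with the dotted line where both are equal. The median moves from -0.60 to 0.59, and the 17 genes move together from the negative to the positive side. Copies almost without reads in the libraries left count in the 0.59.

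Among the members with the highest fitted differences, RNA5SP452, in an intron of OSBPL1A, had the lowest adjusted p. It was at 2.12, 3.85 and 1.38 RPKM in D391N and at 0.230, 0.664 and 0.361 RPKM in control. The groups did not overlap, but every control library and D391N replicate 3 had under 3 effective reads, and no fold is given (adjusted p = 0.149, limma). RNA5SP82 was at 2.02, 6.17 and 1.82 RPKM in D391N and at 0.34, 0.33 and 1.33 RPKM in control, with under 3 effective reads in each control and in D391N replicates 1 and 3 (adjusted p = 0.201). RNA5SP352, opposite to SIAE, was at 15.6, 2.02 and 3.65 RPKM in D391N and at 0.21, 0.21 and 4.69 RPKM in control. Its groups overlapped through control replicate 3, with a log2 fold change of 2.70 (SE 1.23, adjusted p = 0.311). Control replicates 1 and 2 and D391N replicate 2 had under 3 effective reads. With levels under 3 reads raised to that of 3 reads the value was 1.36. No fold is given without control replicate 3 (adjusted p = 0.344), since the other controls had almost no reads. RNA5SP259, in an intron of FZD3, overlapped likewise, at 1.63 (SE 1.54, adjusted p = 0.602), with 18.1 RPKM in control replicate 3. Its control replicates 1 and 2 and D391N replicate 3 had under 3 effective reads, and at the level of 3 reads the value was 0.10. RNA5SP190 reached 5.65 RPKM in D391N replicate 1 and 0.25 to 1.11 RPKM elsewhere, under the level of 3 reads (adjusted p = 0.361).

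RNA5SP276, in an intron of LINC00536, had the lowest fitted difference, and was at 6.61, 0.56 and 0.40 RPKM in D391N and at 8.47, 1.38 and 41.6 RPKM in control. Every D391N library had under 3 effective reads, the conditions overlapped, and no fold is given (adjusted p = 0.371, or 0.687 without control replicate 3). RNA5SP216 and RNA5SP368 followed, at -2.45 (SE 1.60, adjusted p = 0.448) and -2.29 (SE 1.65, adjusted p = 0.492), and both overlapped between the conditions. Without control replicate 3 they were at -0.69 and -0.65 (adjusted p = 0.817 and 0.867). In both, D391N replicates 2 and 3 and control replicate 2 had under 3 effective reads, as did control replicate 1 for RNA5SP216. With levels under 3 reads raised to that of 3 reads, the values over the 6 libraries were -1.03 and -1.01. RNA5SP161 was at 0.78, 0.50 and 0.44 RPKM in D391N and at 1.42, 1.38 and 7.51 RPKM in control. Its groups did not overlap, but every D391N library and both other controls had under 3 reads, so that its level was measured in control replicate 3 alone (adjusted p = 0.232, or 0.472 without it). RNA5SP71 reached 11.6 RPKM in control replicate 3 and 0.27 to 1.14 RPKM elsewhere (adjusted p = 0.510).

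Of the members, 41 are in the study's list of RNAs crosslinked to D391N (CLIP) with an added oligo(U) tail. Of these, 33 had under 3 reads in every library of the RNA-seq and 8 were tested. Their median log2 fold change was -0.46, and 0 of 8 passed the threshold in limma, with 1 (12.5%) at an unadjusted p under 0.05, against 17.6% of all tested transcripts. Without control replicate 3, the highest library for 6 of the 8, their median was 0.77. RNA5SP428, the most abundant of them, was at 8.80, 0.92 and 1.82 RPKM in D391N and at 0.29, 0.21 and 17.9 RPKM in control. RNA5SP202, the copy closest to the gene, was at 1.70, 0.63 and 1.28 RPKM in D391N and at 1.42, 0.56 and 9.75 RPKM in control. In both, and in RNA5SP85, RNA5SP150 and RNA5SP74 (22.8, 16.2 and 13.99 RPKM), control replicate 3 was the highest library. RNA5SP202, RNA5SP150 and RNA5SP74 had under 3 effective reads in every other library. RNA5SP428 and RNA5SP85 had under 3 in control replicates 1 and 2 and in D391N replicate 2. The median of 0.77 therefore rests in part on values almost without reads.

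The proteins that make and bind 5S rRNA were followed as 20 genes, each by its most abundant tested transcript. Of the 19 with one (TST had none), 0 passed the threshold and 5 (2 higher and 3 lower) reached an unadjusted p under 0.05, and the median log2 fold change was 0.24. The conditions did not overlap for 3 genes higher in D391N (GTF3C6, RRS1 and MDM2) and 4 lower (GTF3C5, BRF1, TBP and RPL11), or 15.8% and 21.1%, against 10.1% and 15.6% of all tested transcripts. The 5 genes with an unadjusted p under 0.05 were 26.3% of the list, against 17.6% of all tested transcripts. The values are of 1 transcript a gene, and for GTF3A, GTF3C1, GTF3C2, GTF3C3 and HEATR3 the sum over the gene's transcripts had the opposite sign.

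Among factors that transcribe the 5S genes, GTF3A, which encodes TFIIIA, was at 22.4, 12.8 and 25.6 RPKM in D391N and at 30.1, 27.1 and 19.0 RPKM in control. Its groups overlapped (log2 fold change -0.36, SE 0.35, adjusted p = 0.613), and the summed transcripts had a log2 difference of 0.33. GTF3C6, a subunit of TFIIIC, which TFIIIA recruits, was at 97.7, 116 and 121 RPKM in D391N and at 61.7, 68.7 and 50.7 RPKM in control, at 0.89 (SE 0.24, adjusted p = 0.174). BRF1, a subunit of TFIIIB, was at 6.54, 4.97 and 2.69 RPKM in D391N and at 10.3, 9.29 and 11.6 RPKM in control, at -1.20 (SE 0.36, adjusted p = 0.194). GTF3C5 and TBP, another TFIIIC and another TFIIIB subunit, had -1.13 (adjusted p = 0.279) and -0.76 (adjusted p = 0.344). The other TFIIIC subunits GTF3C1, GTF3C2, GTF3C3 and GTF3C4 had values from -0.33 to 0.24, and BDP1 of TFIIIB had 1.03 (SE 1.0), all with overlap of the conditions.

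RPL11 and RPL5 are the ribosomal proteins of the 5S ribonucleoprotein. RPL11 was at 831, 434 and 595 RPKM in D391N and at 1293, 1301 and 1255 RPKM in control. All D391N libraries lay below all controls, at a log2 fold change of -1.10 (SE 0.34, adjusted p = 0.201). RPL5 was at 1926, 2715 and 2313 RPKM in D391N and at 1960, 1834 and 2057 RPKM in control, and the conditions overlapped (0.24, SE 0.33, adjusted p = 0.738). MDM2, the ubiquitin ligase that the free particle binds, was at 102, 162 and 123 RPKM in D391N and at 66.7, 81.3 and 64.4 RPKM in control, at 0.85 (SE 0.27, adjusted p = 0.208). RRS1, which with RPF2 loads the particle onto the large subunit, had 0.57 (SE 0.25, adjusted p = 0.302), and RPF2 and HEATR3, the importer of the RPL5 and RPL11 pair, had 0.27 and 0.12. Of the other proteins that bind 5S rRNA, SSB (La), TROVE2 (Ro60) and MRPL18 had 0.63, 0.63 and 0.89, with adjusted p of 0.370, 0.460 and 0.551 and overlapping conditions. Without D391N replicate 1, RPL11, BRF1 and TROVE2 passed the threshold in limma (-1.33, -1.47 and 1.11, adjusted p = 0.041, 0.049 and 0.038). So did 4961 of all tested transcripts and 1 member, RNA5SP327, lower in D391N (adjusted p = 0.045, limma). RNA5SP327 was at 0.51 and 1.12 RPKM in the D391N libraries left, with under 3 effective reads in each. With levels under 3 reads raised to that of 3 reads, its value over the 6 libraries was 0.05.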

How the data were processed

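RNA-seq of 3 D391N and 3 control libraries was used. Per the study's methods, the authors trimmed reads, aligned them with Segemehl to Ensembl transcripts of GRCh38 and ran BitSeq. The deposited values are natural log RPKM (the posterior mean) per transcript and library, with the posterior variance. Exponentiated values were analysed as log2(RPKM + 0.1), which understates changes of low copies. Transcripts averaging 1 RPKM or more were fitted with limma 3.58.1 (trend, R 4.3.3) and Benjamini-Hochberg adjustment over all. Tables used Python 3.11.15, pandas 2.3.3 and Biopython 1.88. Read totals are not in these values, so that the depth is unknown. Effective reads came from the posterior variance, taken as that of a gamma posterior. Positions are GRCh37 (GENCODE v44), matched by transcript identifier, although reads were aligned to GRCh38. Sequences are not reported here. On simulated data, 39% of 200 transcripts changed by 3 (log2) were recovered among 54671, with 0 false calls.

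Members and lists were chosen with earlier results of these data known. Named were RNA5S1 to RNA5S17, the 10 members of highest level, the 5 highest and 5 lowest fold changes, any member past the threshold, members next to the minimum, the 5 highest CLIP-listed members, pathway genes, DIS3L2 and remaining rRNA. RNA5SP48, RNA5SP61, RNA5SP188, RNA5SP268, RNA5SP327, RNA5SP389, RNA5SP479, the host genes and the mismatch classes were chosen after their values were seen. Alternatives were other pseudocounts, filters and scalings, a replicate block, limma without trend and each library left out.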

Additional observations from a re-analysis of the deposited data

How the results depend on the processing

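The count of 0 members past the threshold held under 2 other pseudocounts (1 and 0.01 RPKM), filters at 0.1, 5 and no minimum, median centring, quantile normalization and limma without trend, with 1 to 9 members at an unadjusted p under 0.05. Leaving out each library in turn gave 0 to 1 members past the threshold, beside 2 to 4961 of all tested transcripts, and 0 to 3 pathway genes. It gave 7 to 30 of 97 members without overlap. Of all tested transcripts, 12.7 to 21.3% then lay above and 18.2 to 26.0% below. The family difference (log2) was -1.45 to 0.93, positive without control replicate 3 alone. The members without overlap numbered 13 of 515 at a minimum of 0.1 RPKM, beside 6.87% of all tested transcripts above and 13.6% below. With no minimum they numbered 13 of 515, beside 5.41% and 10.4%. At a minimum of 5 RPKM there was 1 of 30, beside 15.1% and 15.7%. At a mean of at least 10 effective reads, an alternative chosen after seeing the data, there was 1 of 9, beside 9.79% and 16.6%. Over the 67 members with a mean of at least 1 RPKM in the libraries other than control replicate 3, also chosen then, 5 did not overlap. With fewer or more members tested, these counts change by construction. The median log2 fold change of the members was 0.20 over all 515, most of which have no reads of their own. Other choices gave family differences of -0.67 to -0.40. Same-numbered libraries had correlations of 0.087, 0.055 and -0.11 and share only a number. With a replicate block in limma 0 members and 0 pathway genes passed, with 4 of each at an unadjusted p under 0.05. Of 457 values of 36 single members under the alternatives, 426 kept their direction. The other 31, in 25 members, changed sign without control replicate 3 (24), D391N replicate 2 (5), D391N replicate 3 (1) or control replicate 2 (1), and none of these was past the threshold. Low read numbers limit all but 9 members.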
